A study of Homo sapiens with 6 samples.

Results

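The genes described here encode 9 components and regulators of the complement system: the C1 proteases C1R and C1S, the central component C3, the alternative pathway proteins CFB and CFD, the soluble inhibitor SERPING1 and the membrane regulators CD46, CD55 and CD59. They were chosen by gene symbol, each symbol matched a single Ensembl identifier, and all 9 were found among the 63241 genes of the count files. RNA sequencing had been done on MDA-MB-231, an established human triple-negative breast cancer cell line with the genotype labelled WT, in 2 groups of 3 libraries. The control group received the vehicle, 0.1% DMSO, and the other group received 5 μM nitidine chloride (NCD), a plant alkaloid, both for 24 hours. The study asked how NCD acts on immune-related gene expression in these tumor cells, and the comparison sets NCD against DMSO. Each group is 1 line grown without immune cells, and the labels number the libraries without saying that they came from separate cultures, so the p-values measure the spread between these libraries.

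Complement is a cascade of plasma and membrane proteins that marks and lyses targets. In the classical pathway the C1 complex, which holds the proteases C1r and C1s, is switched on by bound antibody, whereas the alternative pathway amplifies C3 cleavage through factor B and factor D. Both converge on C3 and then on C5 and the membrane attack complex. Host cells carry CD46 and CD55, which act on the C3 convertases or their products, and CD59, which blocks the membrane attack complex. Liver is the main source of the plasma components, but epithelial and tumor cells also transcribe several of them, and inflammatory cytokines and interferons are known to induce C1R, C1S, C3, CFB and SERPING1.

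The libraries held 18223594 to 19410833 expected counts with DMSO and 18232169 to 21629653 with NCD. Values are given as counts, as CPM (reads scaled to a common library size, here adjusted by edgeR's TMM method) and, where levels of different genes are compared, as RPKM (CPM per kilobase of summed exon length). Changes are log2 fold changes from edgeR's quasi-likelihood test, with p adjusted by the Benjamini-Hochberg method over the 15295 genes that passed the filter on low counts. The 5 markers of mesenchymal-like breast lines, VIM, CD44, ITGB1, CAV1 and LGALS1, summed to 7475 to 7897 CPM with DMSO and 4643 to 4912 CPM with NCD, whereas ESR1 and PGR had at most 7 counts in any library, although ERBB2, also low by definition in triple-negative tumors, had 638 to 1421 counts. The 5 hepatocyte markers summed to at most 0.17 CPM in any library, with APOB, TTR and FGB at 0 counts. Of the 6 leukocyte markers, PTPRC had at most 1 count, and the list summed to 0.482 to 0.713 CPM with DMSO and 0.653 to 1.18 CPM with NCD. As bulk RNA was sequenced, fewer cells expressing a gene and less RNA per cell cannot be told apart.

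With NCD, mRNA of the proteases C1R and C1S and of CFB rose 3.20-fold, 2.62-fold and 3.59-fold, and that of CD55 and C3 rose less, by 1.70-fold and 1.28-fold. C3 did not pass without DMSO replicate 3 (edgeR adjusted p = 0.0651). CD59 and CD46 fell, to 0.58 and 0.832 of the DMSO level, and CD46 did not pass with another scaling. CFD and SERPING1 did not pass the test. All 9 genes passed the filter on low counts, SERPING1 through its NCD libraries. By the rule that the study also used for size, an absolute log2 fold change above 1, together with an adjusted p below 0.05 in edgeR's quasi-likelihood test, 3 of the 9 were called higher and 0 lower, beside 13.5% of all tested genes higher and 17.5% lower. On the adjusted p alone, 5 were higher and 2 lower, beside 35.3% and 34.1% of all tested genes. Under that looser rule 69.3% of all tested genes passed, so 7 of 9 is close to the background. The median log2 fold change of the 9 was 0.76, against 0.04 over all tested genes. In CPM the NCD libraries lay wholly above the DMSO libraries for 6 of the 9 and wholly below for 2, beside 37.2% and 35.3% of all tested genes (72.6% in either direction).

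**Figure D1:**
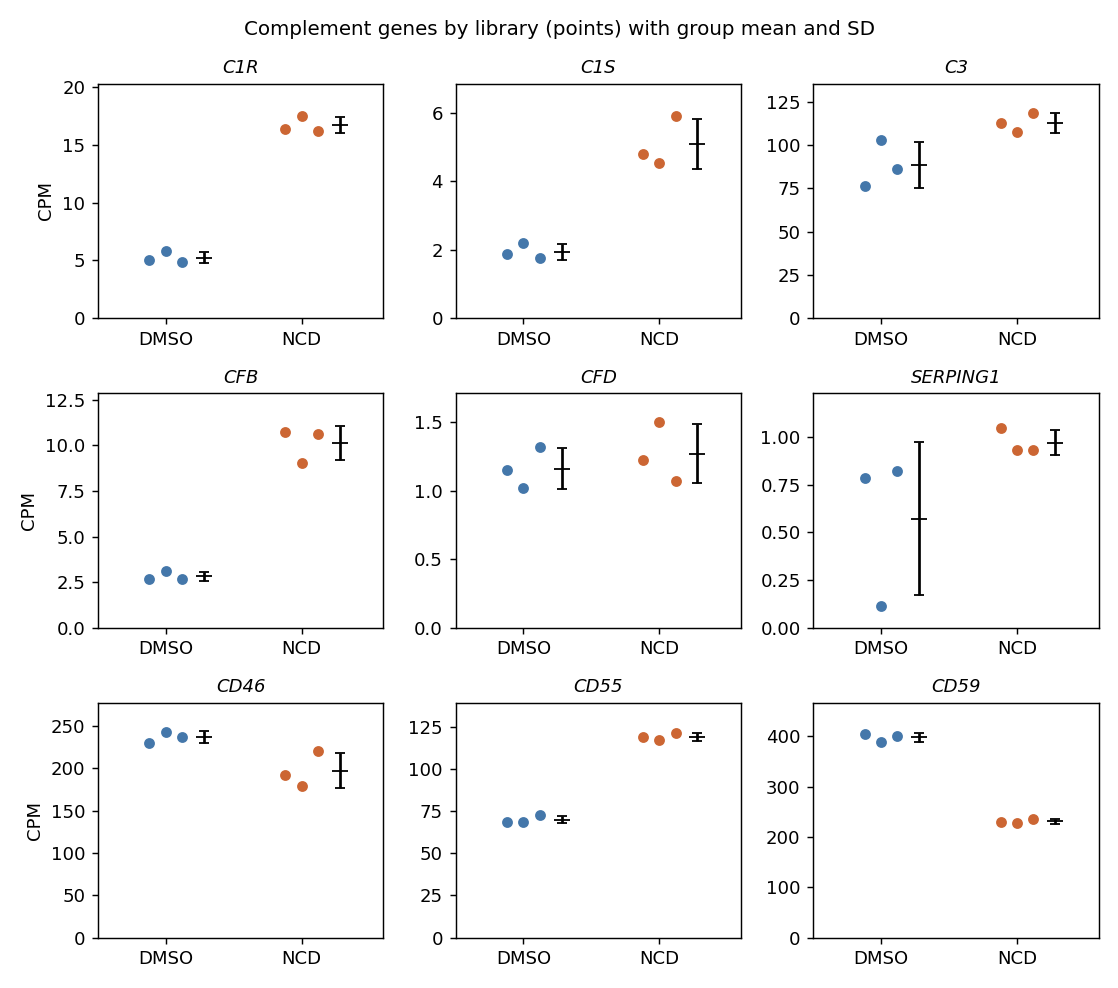
CPM of each complement gene in the 3 DMSO and 3 NCD libraries (points), with the group mean and SD (bar); each panel has its own linear axis from 0. The NCD points of C1R, C1S, C3, CFB, CD55 and SERPING1 lie above all DMSO points, those of CD46 and CD59 lie below, and those of CFD overlap.

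C1R and C1S encode the paired serine proteases of the C1 complex. Their genes lie 9.2 kb apart on chromosome 12, C1R (ENSG00000159403) at 7080199 to 7092607 on the minus strand and C1S (ENSG00000182326) at 6988259 to 7071032 on the plus strand, by GENCODE release 29 on GRCh38. The DMSO libraries held 84.2, 102 and 88 counts of C1R, and those with NCD held 376, 339 and 348. Every NCD library held more than 3 times the count of any DMSO library, and the mean level was 5.22 ± 0.493 CPM under DMSO and 16.7 ± 0.707 CPM under NCD (SD, n = 3 each). C1R rose by 1.68 on the log2 scale with a standard error of 0.11 (edgeR quasi-likelihood test, adjusted p = 1.42e-06). C1RL, which encodes a related protease, overlaps C1R on the same strand and shares exon bases with it, and reads could have been split between them. C1RL itself had 68.2, 82 and 91 counts with DMSO and 162, 128 and 146 counts with NCD, and its log2 fold change was 0.58. With the counts of C1RL added to those of C1R, the log2 fold change of C1R was 1.26 (adjusted p = 2.35e-06 in the same edgeR test).

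C1S was expressed at a lower level, with 31, 39 and 32 counts under DMSO, and 110, 88 and 127 under NCD. The groups did not overlap, and the mean level was 1.94 ± 0.235 CPM under DMSO and 5.09 ± 0.728 CPM under NCD (SD, n = 3 each). C1S thus had a log2 fold change of 1.39 with a standard error of 0.18 (edgeR, adjusted p = 0.000137). A difference between the 2 proteases in how far they moved was not shown beyond the spread of the libraries: the log2 ratio of C1S to C1R counts was -1.44, -1.39 and -1.46 with DMSO and -1.77, -1.95 and -1.45 with NCD. The ratios overlapped between the groups (difference -0.29, two-sided exact permutation test, p = 0.2, where 3 against 3 libraries cannot go below 0.1). The GENCODE model of C1S spans 82.8 kb because some of its transcripts start far upstream and share exon bases with EMG1. RefSeq gives C1S 10.3 kb. EMG1 was far more abundant than C1S, and its groups overlapped: 804 to 986 counts per DMSO library, against 870 to 1051 per NCD library. LPCAT3 overlaps C1S on the opposite strand without shared exon bases. LPCAT3 had 243 to 330.5 counts per DMSO library and 363 to 468 per NCD library. These counts are not scaled for library size, so they do not show whether the groups separated. How far reads of either gene bear on C1S was not tested, and the strandedness of the libraries is unknown.

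CFB (ENSG00000243649; chromosome 6, 31945650 to 31952084, plus strand) encodes factor B, the protease subunit of the alternative pathway C3 convertase, and had the largest change of the 9 genes. Its counts were 43.5, 55 and 49 with DMSO and 246, 175 and 227 with NCD. The lowest NCD count was thus above 3 times the highest DMSO count. The means were 2.82 ± 0.256 CPM and 10.1 ± 0.934 CPM (SD, n = 3 each), a change of 1.85 on the log2 scale with a standard error of 0.14 (edgeR, adjusted p = 3.53e-06). C2, which encodes the classical pathway counterpart of factor B and overlaps CFB on the same strand, was at 3.43, 4 and 5 counts under DMSO, against 16.7, 9 and 11 under NCD. It lay below the filter on low counts, its summed counts gave a ratio of NCD to DMSO of 2.54 (exact 95% interval 1.30 to 5.36, for counting error only), and without the filter its adjusted p from edgeR was 0.073. A read-through gene that joins C2 and CFB had at most 3.04 counts. With the counts of both overlapping genes added, the log2 fold change of CFB was 1.79.

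C3 (ENSG00000125730; chromosome 19, 6677704 to 6730562, minus strand) encodes the component on which all activation pathways converge. It was the most abundant of the secreted members, with 1271, 1817 and 1574 counts under DMSO, and 2575, 2092 and 2561 under NCD. In CPM the NCD values of 113, 108 and 119 CPM lay above the DMSO values of 76.6, 103 and 86.3 CPM, but the gap between the groups was small beside the spread within DMSO. C3 had a log2 fold change of 0.36 with a 95% interval of 0.12 to 0.59 (edgeR, adjusted p = 0.012), and without DMSO replicate 3 it was 0.31 and did not pass (adjusted p = 0.0651). Within libraries CFB was higher relative to C3 with NCD: the log2 ratio of CFB to C3 counts was -4.97 ± 0.09 with DMSO and -3.49 ± 0.09 with NCD (SD, n = 3; two-sided exact permutation test, p = 0.1, the smallest p the design allows). GPR108, which overlaps C3 on the same strand without shared exon bases, was at 502, 511 and 548 counts under DMSO, against 1480, 1278 and 1196 under NCD, and how far its reads bear on C3 was not tested.

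CFD (ENSG00000197766; chromosome 19, 859643 to 863630, plus strand) encodes factor D, or adipsin, the protease that cleaves factor B. The DMSO libraries held 18.7, 18 and 24 counts, and those with NCD 28.3, 29 and 23. The groups overlapped on the CPM scale, at 1.16 ± 0.149 CPM and 1.27 ± 0.217 CPM (SD, n = 3 each), and the log2 fold change of 0.12 did not pass (95% interval -0.46 to 0.70, adjusted p = 0.695, edgeR). This interval includes both a small fall and a rise, so a change was not detectable at this depth. Of the 4 adipocyte markers, CIDEC had 0 counts and ADIPOQ at most 1, but PLIN1 had 1 to 3 counts with DMSO and 24 to 31 with NCD. The adipocyte list summed to 0.0603 to 0.164 CPM with DMSO and 1.35 to 1.49 CPM with NCD.

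SERPING1 (ENSG00000149131; chromosome 11, 57597387 to 57614853, plus strand) encodes C1 inhibitor, the serpin that inactivates C1r and C1s. Its counts were 13, 2.01 and 14.6 with DMSO and 24, 18.4 and 20.3 with NCD. On the CPM scale every NCD library was above every DMSO library, but the levels of 0.931, 0.932 and 1.05 CPM with NCD lay close to the 0.783 and 0.822 CPM of DMSO replicates 1 and 3, and DMSO replicate 2 stood apart at 0.113 CPM. A log2 fold change of 0.76 did not pass (95% interval -0.37 to 1.89, adjusted p = 0.202, edgeR). Without DMSO replicate 2 it was 0.26 (adjusted p = 0.494 in the same edgeR test), so its size rested on that library.

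Of the membrane regulators, CD46 and CD59 were the most abundant of the 9 genes in CPM, and the group moved in different directions. CD55 (ENSG00000196352; chromosome 1, 207321376 to 207386804, plus strand), or decay-accelerating factor, speeds the decay of C3 convertases. Its counts were 1138, 1216 and 1321 under DMSO, against 2715, 2255 and 2599 under NCD. These values correspond to 68.6, 68.8 and 72.4 CPM against 119, 117 and 121 CPM, groups whose distance was many times the spread within either. CD55 thus rose by 0.76 on the log2 scale with a standard error of 0.06 (edgeR, adjusted p = 2.92e-06), below the size needed for a call.

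CD59 (ENSG00000085063; chromosome 11, 33703010 to 33736491, minus strand) encodes protectin, which stops C9 from completing the membrane pore. It fell from 6710, 6855 and 7314 counts to 5249, 4390 and 5048 counts. In CPM this was 404, 388 and 401 CPM with DMSO against 229, 227 and 235 CPM with NCD, again with no overlap. The change was -0.79 on the log2 scale with a standard error of 0.05 (edgeR, adjusted p = 1.66e-06). A protein-coding gene annotated on the same strand, AL049629.2, shares exon bases with CD59 and had 260 to 371 counts per library, and with its counts added the log2 fold change was -0.77.

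CD46 (ENSG00000117335; chromosome 1, 207752057 to 207795513, plus strand), or membrane cofactor protein, helps factor I to cleave C3b and C4b. There were 3815, 4302 and 4317 counts under DMSO, against 4393, 3460 and 4708 under NCD. The counts overlapped, but after TMM scaling the NCD values of 192, 179 and 220 CPM lay below the DMSO values of 230, 243 and 237 CPM. CD46 had a log2 fold change of -0.27 with a 95% interval of -0.44 to -0.09 (edgeR, adjusted p = 0.0138). This result depended on the scaling, as library totals in place of TMM shift the median of all tested genes from 0.04 to 0.23. With library totals CD46 had a log2 fold change of -0.07 and did not pass (adjusted p = 0.508, edgeR). It also did not pass without NCD replicate 2 (log2 fold change -0.20, adjusted p = 0.0623, edgeR). CD46 and CD55 lie 365.3 kb apart in the cluster of complement regulator genes on chromosome 1.

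Ratios within a library do not depend on the scaling. The log2 ratio of CD55 to CD46 counts was -1.75, -1.82 and -1.71 with DMSO and -0.69, -0.62 and -0.86 with NCD, a difference of 1.04. That of CD59 to CD46 was 0.81, 0.67 and 0.76 with DMSO and 0.26, 0.34 and 0.10 with NCD, a difference of -0.52. Neither ratio overlapped between the groups, and for both the two-sided exact permutation test gave p = 0.1, the smallest possible. The ratio of CFB to CD55 differed by 1.09 on the same scale (exact permutation test, p = 0.1). Among the 5 ratios computed, the 4 other than that of C1S to C1R had no overlap between the groups. Separation was common in these data, as 72.6% of all tested genes did not overlap in CPM. No background of ratios between other genes was computed.

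On the RPKM scale, CD59 supplied 49.6% ± 1.03 of the summed level of the 3 membrane regulators with DMSO and 34.3% ± 1.03 with NCD (SD, n = 3). The share of CD55 went from 15.3% ± 0.344 to 31.0% ± 0.911, and that of CD46 was 35.1% ± 1.05 and 34.7% ± 1.93. The summed level itself was 77.4 ± 0.63 RPKM with DMSO and 65.0 ± 3.16 RPKM with NCD. With the length of the longest coding transcript as divisor, the share of CD59 was 35.6% and 23.3% and that of CD55 16.5% and 31.7%. That of CD46 was 47.9% and 44.9% on this scale. The directions for CD59 and CD55 follow from the count ratios above with any fixed lengths, so the second divisor is no separate check of them.

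**Figure D2:**
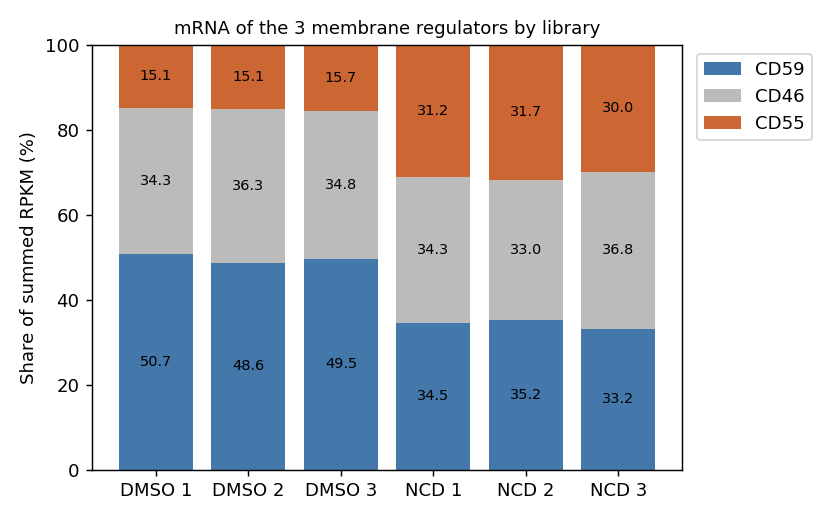
Share of the summed RPKM of CD46, CD55 and CD59 that each gene supplied, in percent, as stacked bars for the 3 DMSO and 3 NCD libraries. The CD55 share is 15.1 to 15.7% in the DMSO libraries and 30.0 to 31.7% in the NCD libraries, and the CD59 share is 48.6 to 50.7% and 33.2 to 35.2%.

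The order of the levels per length was CD59 (38.4 RPKM), CD46 (27.2), CD55 (11.8), C3 (10.6), CFD (0.949), C1R (0.887), CFB (0.564), C1S (0.301) and SERPING1 (0.159 RPKM) with DMSO. The library values of CD55 overlapped those of C3, and those of CFD overlapped those of C1R, while the other neighbours were separate. With NCD the order was CD46 (22.6 RPKM), CD59 (22.3), CD55 (20.1), C3 (13.6), C1R (2.84), CFB (2.03), CFD (1.04), C1S (0.788) and SERPING1 (0.269 RPKM), and the library values of CD46 overlapped those of CD59 and those of CFD overlapped those of C1S. Several places in this order depended on the length used. Per kilobase of the longest coding transcript, the DMSO levels were 70.2 CPM for CD46, 52.1 for CD59, 1.96 for C1R, 0.984 for CFB and 0.966 CPM for CFD, so CD46 came before CD59 and C1R and CFB before CFD. With NCD on that scale CD55 (41.1 CPM) came before CD59 (30.2 CPM), and C1S (1.66 CPM) before CFD (1.05 CPM). The secreted members together summed to 13.5 ± 1.57 RPKM with DMSO and 20.6 ± 0.647 RPKM with NCD (SD, n = 3), of which C3 supplied 78.6% and 66.1%.

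**Figure D3:**
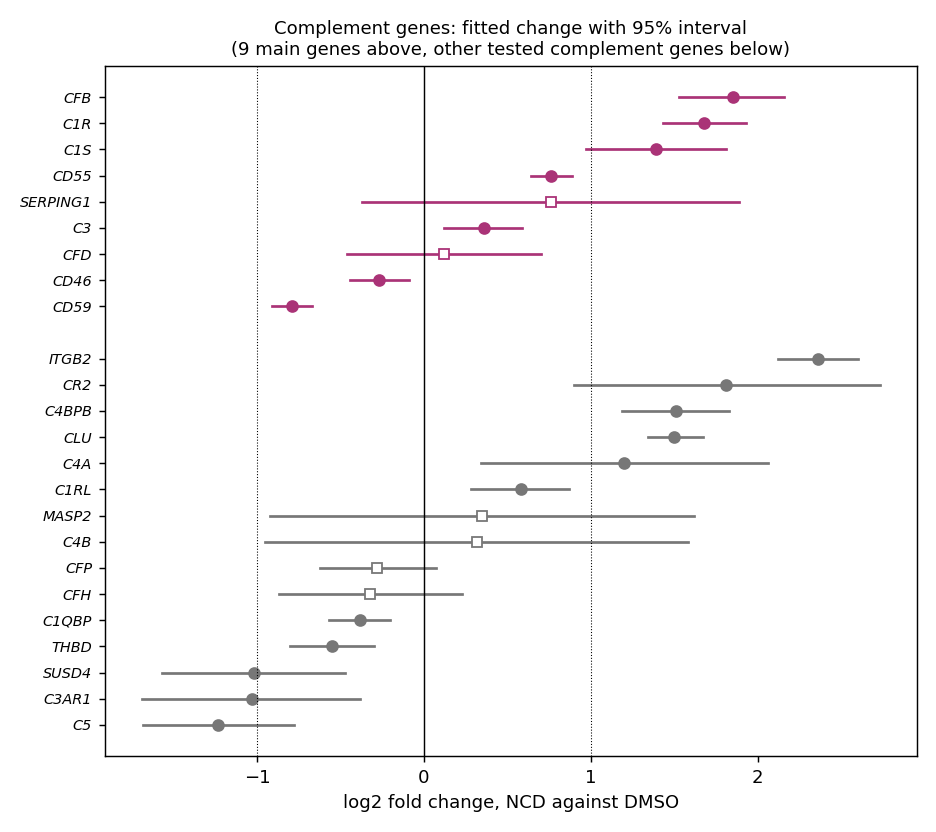
Fitted log2 fold change, NCD against DMSO, with its 95% interval for the 9 complement genes (upper block) and the 15 other complement genes that could be tested (lower block). Filled circles passed an adjusted p of 0.05, open squares did not, and dotted lines mark a log2 fold change of 1 in either direction; CFB, C1R and C1S lead the upper block at 1.85, 1.68 and 1.39, and CD59 is lowest at -0.79.

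A list of 53 other complement genes, drawn up from textbook membership, gave the surroundings of the 9. Only 15 could be tested, and 20 of the other 38 had 0 counts in every library, which allows at most 0.131 to 0.181 CPM per library. Of the 15, 5 were called higher and 3 lower by the rule with the fold threshold, beside 13.5% and 17.5% of all tested genes, and the median log2 fold change was 0.32 beside 0.04. CR2 and C4A, among those called higher, passed the filter on low counts through their NCD libraries, which favours a higher level with NCD. With at least 10 counts required in every library 6 genes of the list were called. The recognition genes C1QA, C1QB, C1QC, MBL2, FCN1 and FCN2 had no counts, so mRNA of C1q was not detected beside that of C1r and C1s. Of the pathway below C3, C5 fell (-1.23 on the log2 scale, SE 0.20, edgeR adjusted p = 0.000467), C6, C8A, C8B and C9 had 0 counts, C7 had at most 1 and C8G at most 12.

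Among the other genes of this list, ITGB2, the beta chain shared by complement receptors 3 and 4, rose from 79.8, 100 and 92.9 counts to 597, 553 and 546 counts (log2 fold change 2.36, adjusted p = 1.43e-07, edgeR). The alpha chain genes of those receptors were at 0 counts for ITGAM and at most 4.13 counts for ITGAX. CLU, a soluble inhibitor of the membrane attack complex, rose 2.83-fold, with 36.6 ± 0.718 CPM under DMSO and 104 ± 7.13 CPM under NCD (SD, n = 3 each; edgeR adjusted p = 2.1e-07). C4BPB, the beta chain of C4b-binding protein, rose by 1.51 on the log2 scale, with an adjusted p of 1.34e-05 (edgeR), while C4BPA, the alpha chain that carries most of the activity, had 0 counts. CR2, the receptor for C3d, had 2, 8 and 6 counts under DMSO, against 23, 20 and 26 under NCD (1.81 on the log2 scale, edgeR adjusted p = 0.0032). SUSD4 and C3AR1, the receptor for C3a, fell by 1.02 and 1.03 on the log2 scale, with adjusted p = 0.00444 and 0.0107 from edgeR. C4A was called higher (log2 fold change 1.20, adjusted p = 0.0186, edgeR) and C4B was not (0.32), but these near-identical copies share reads and their split is uncertain. Their summed counts were 14, 14 and 18 with DMSO and 34, 27 and 36 with NCD.

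C5AR1, the receptor for C5a, was singled out after its values were seen. Its counts were 1, 0 and 0 under DMSO, against 14, 13 and 8 under NCD. Relative to library size this is 28.9 to 1, and the exact 95% interval for counting error runs from 4.85 to 1173. It lay below the filter on low counts, and without that filter its adjusted p from edgeR was 3.82e-05. The fit without the filter also gave C1R a far smaller adjusted p, 1.14e-25 against 1.42e-06 with the filter (both edgeR). The values without the filter for C5AR1 and C2 are therefore not on the scale of the others.

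A second list held 17 cytokines, kinases and transcription factors known to induce complement genes, of which 13 could be tested. By the rule with the fold threshold, 3 of the 13 were higher and 4 lower, beside 13.5% and 17.5% of all tested genes, and the median log2 fold change was -0.09 beside 0.04. IL6 averaged 4.32 ± 0.625 CPM under DMSO and 43.7 ± 2.61 CPM under NCD (SD, n = 3 each), IRF1 rose by 2.04 and CEBPB by 1.39 on the log2 scale. The log2 fold changes of those called lower were -2.08 for NFKB1, -1.61 for JAK2 and -1.15 for both IL1B and JAK1. On the adjusted p alone, 5 of the 13 were higher and 6 lower, beside 35.3% and 34.1% of all tested genes. RELA was among those higher, with a log2 fold change of 0.67. STAT3, at 0.00, did not pass the test (adjusted p = 0.959, edgeR). IFNB1, IFNG and OSM had 0 counts in every library, and TNF had at most 5. Whether any of these genes acted on the 9 complement genes was not tested.

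The 250 bases before the transcription start were read from RefSeq promoters on GRCh38.p14 for the 6 members found in that table, namely C1R, CFB, CFD, CD46, CD55 and CD59, which have 11 windows in all. Both strands were searched for the interferon-stimulated response element (ISRE: GAAA, any 2 bases, GAAA), the STAT-binding GAS element (TTC, any 3 bases, GAA) and the NF-kB core (GGGA, any 4 bases, CC). Over all 35116 windows of this length, 3.02%, 6.57% and 22.6% held the respective letters. The ISRE letters were found for CFB alone of the 6, the GAS letters for C1R, CFB and CD59, and the NF-kB letters for C1R, CFB and CFD. A member with several windows counted if any of them held the letters, whereas the shares over all windows are per window. The matches of C1R lay only in its window at chr12:7091894-7092143, inside the gene as RefSeq places it (7080219 to 7092445). CFB thus held all 3, at -140 to -131 for the ISRE, at -92 to -84 for the GAS letters, and at -185 to -176 and -111 to -102 for the NF-kB letters, counted back from the base before the start, with no overlap between them. The windows of CFB, which rose most, of CD55, which rose and held no match, and of CD59, which fell and held a GAS match, follow with matches in capitals. They lie at chr6:31945845-31946094 (plus strand), chr1:207321428-207321677 (plus strand) and chr11:33736480-33736729 (minus strand), and each is written from 5′ to 3′.
CFB: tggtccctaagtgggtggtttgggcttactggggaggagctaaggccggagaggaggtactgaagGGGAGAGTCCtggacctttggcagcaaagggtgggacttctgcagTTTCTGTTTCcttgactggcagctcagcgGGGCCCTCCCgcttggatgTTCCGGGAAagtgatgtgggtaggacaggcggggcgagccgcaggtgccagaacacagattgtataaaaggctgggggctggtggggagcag
CD55: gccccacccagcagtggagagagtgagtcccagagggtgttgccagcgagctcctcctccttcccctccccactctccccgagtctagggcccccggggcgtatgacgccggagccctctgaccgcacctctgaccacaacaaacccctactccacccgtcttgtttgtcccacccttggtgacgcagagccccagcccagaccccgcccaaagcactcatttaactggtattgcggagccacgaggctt
CD59: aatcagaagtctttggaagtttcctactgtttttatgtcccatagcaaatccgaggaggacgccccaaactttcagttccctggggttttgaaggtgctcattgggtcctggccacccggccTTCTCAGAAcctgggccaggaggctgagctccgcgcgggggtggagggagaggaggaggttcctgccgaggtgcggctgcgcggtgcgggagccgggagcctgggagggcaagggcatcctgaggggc
A match describes letters in these windows, and binding was not measured.

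Gene span moved with the change over all tested genes, so the spans of the members are given beside it. With the tested genes divided into 10 equal classes of span, the median log2 fold change was 0.39 for spans of 3.7 to 8.0 kb, which hold CFB (6.4 kb) and CFD (4.0 kb), and 0.41 for 8.0 to 13.2 kb, which hold C1R (12.4 kb). It was 0.43 for the class of SERPING1, from 13.2 to 20.1 kb, and 0.11 for that of CD59, from 29 to 41.2 kb. For C3 and CD46, in the class from 41.2 to 58.9 kb, it was -0.03, and for C1S and CD55, in that from 58.9 to 89.7 kb, it was -0.35. In the classes of CFB and C1R, 21.7% and 21.9% of genes were called higher, and in that of C1S and CD55 5.92%. The 2 classes above 89.7 kb held no member, and 46.0% and 79.2% of their genes were called lower. CD59, at -0.79, lay below the median of its class, and CD55, at 0.76, above that of its own. The place of C1S and CD55 depends on long GENCODE transcripts, since RefSeq gives them 10.3 kb and 39.3 kb. The RefSeq span of C1S lies within the range of the class of C1R. The part of gene span in the changes of the members was not tested.

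**Figure D4:**
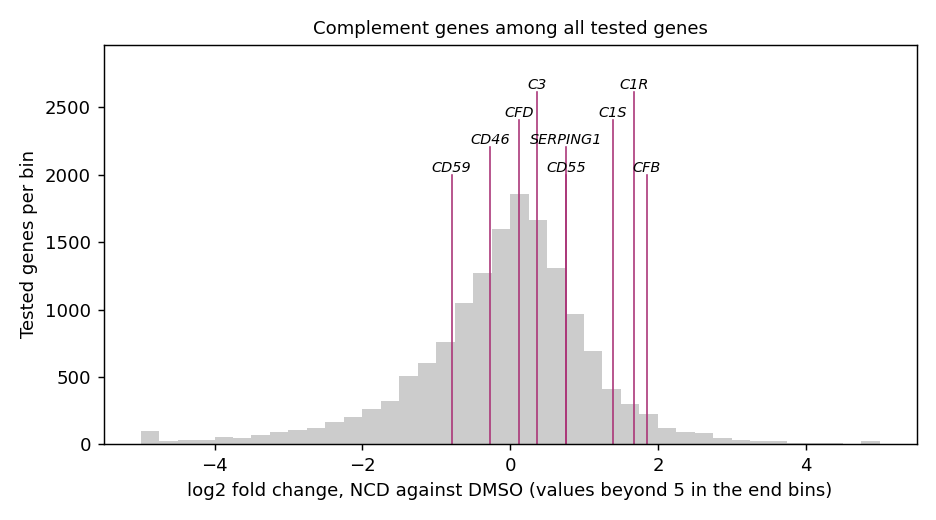
Number of the 15295 tested genes per 0.25-wide bin of log2 fold change, NCD against DMSO (grey), with the 9 complement genes marked by lines whose heights only separate the names. The marks run from CD59 at -0.79 to CFB at 1.85, on either side of the overall median of 0.04.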

How the data were processed

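RNA from MDA-MB-231 cells was sequenced in 3 DMSO and 3 NCD libraries. In the labels of NCD replicates 2 and 3 the description carries another line number than the cell line field, which was used. The authors aligned reads with HISAT2 and deposited the expected counts per Ensembl gene estimated by RSEM, without normalization. The submitters' processing notes name GRCh38 (hg38), and tool versions, annotation release and strandedness are not given in the sources used here. In each file 25 stray annotation lines without a gene were skipped. Symbols were matched for 62666 of 63241 genes, and 58228 were in GENCODE release 29, which gave coordinates and exon lengths.

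Counts were rounded, filtered with filterByExpr, scaled by TMM and tested with edgeR 4.0.16 (glmQLFit, glmQLFTest) in R 4.3.3. Standard errors are the absolute log2 fold change over the square root of F, and 95% intervals use the degrees of freedom of that test. The study used DESeq2 with a log2 threshold of 1, which was kept here as the fold threshold. The test was checked on simulated counts in which a small part of the genes changed, with rises and falls equally likely. That check does not cover a change in most genes, as seen here, or its effect on the scaling. Permutation tests used scipy 1.17.1. Figures were drawn with matplotlib 3.10.9. Counting intervals cover counting error only. No library was a copy of another: replicates differed by more than sampling noise (chi-square of 2.05 or more for each degree of freedom).

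The members, gene lists and motifs were chosen with earlier results of these data known. Named genes are all 9 members, up to 8 called genes per list by smallest p, and overlapping genes with counts. Further genes of the lists, such as C5AR1, RELA and STAT3, were named outside that rule. Alternatives were DESeq2 1.42.0, limma-voom (limma 3.58.1), library totals, DESeq2 size factors, other low-count filters, a prior count of 2, no fold threshold, the replicate number as a block and leaving out each library. Adding overlapping genes' counts and dividing by the longest coding transcript were chosen after seeing the data. Single values of some genes on the lists are not reported here.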

Additional observations from a re-analysis of the deposited data

How the results depend on the processing

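C1R, C1S, CFB, CD55 and CD59 kept their direction and their side of the adjusted p threshold under all 15 alternatives run for each. Some of these could not move the result. A prior count of 2 changes the log2 fold change but not the p-value. Adding overlapping genes' counts left C1S and CD55 with their own counts, since EMG1 was not added to C1S and CD55 has no overlapping gene. With each library left out in turn, the log2 fold change ranged from 1.59 to 1.75 for C1R, from 1.25 to 1.48 for C1S, from 1.78 to 1.92 for CFB, from 0.72 to 0.78 for CD55 and from -0.82 to -0.77 for CD59. C3 ranged from 0.24 to 0.47 (edgeR adjusted p from 0.000948 to 0.0651) and did not pass without DMSO replicate 3. CD46 ranged from -0.37 to -0.20 (edgeR adjusted p from 0.000579 to 0.0623) and did not pass without NCD replicate 2 or with library totals, where it was -0.07. CFD ranged from -0.01 to 0.21 and changed sign without NCD replicate 2 (edgeR adjusted p = 0.975). SERPING1 ranged from 0.26 to 1.10, never past the threshold, and could not be tested with at least 10 counts in every library, since DMSO replicate 2 held too few. The cause of these shifts was not tested, except that library totals moved the median of all genes. Without the fold threshold 7 members and 10602 genes counted, by construction, against 3 and 4736. The share of called genes that were higher was 56.2% with library totals and 43.6% with TMM. The count of called genes ranged from 4653 to 5049 without each library, the members called stayed at 3, and the other complement genes called ranged from 6 to 9. The labels do not say whether libraries with the same replicate number were paired. The correlations of their deviations were 0.216, -0.185 and 0.0226, and with 3 libraries per group they cannot decide it. Under a replicate block 4723 genes and 3 members were called, and the log2 fold changes were 1.68 for C1R, 1.39 for C1S, 0.37 for C3, 1.84 for CFB, 0.12 for CFD, 0.82 for SERPING1, -0.27 for CD46, 0.76 for CD55 and -0.79 for CD59. Depth limits CFD and SERPING1, with at most 29 and 24 counts in any library.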
